A study of Mus musculus with 2 samples.

Results

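The interstitial collagens and the enzymes that process them were followed in GFP-positive cells of pancreatic tumours and of normal pancreas. The set was a named list of 35 mouse genes, of the 27998 genes counted: 17 collagen chain genes and 18 genes of chain hydroxylation, folding, propeptide removal and crosslinking. All 35 were found by symbol in both libraries and all had at least 1 UMI (unique molecular identifier, a tag that marks a single captured transcript) in fibroblast-like cells.

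The tumour library held cells sorted for GFP and podoplanin (PDPN), labelled as cancer-associated fibroblasts (CAFs), from Rosa26-mTmG;Fabp4-Cre mice 21 days after FC1245 pancreatic ductal adenocarcinoma cells had been implanted orthotopically at 8 weeks of age. The normal library held cells sorted for GFP alone from pancreata of Rosa26-mTmG;Fabp4-Cre mice aged 6 to 9 weeks, labelled as pancreatic stellate cells. In both, GFP marks any cell with a history of Fabp4 promoter activity, and Fabp4 is also active in adipocytes, macrophages and capillary endothelium. Each group was 1 library of droplet-based 3′ single-cell RNA sequencing with no replicate, and the number of mice pooled is not given in the sources used here. The sex makeup of the cells also differed, as described below. Tumours and normal pancreata were digested with different enzymes and came from mice of different age, so that library, gate, digestion, age and tumour growth cannot be told apart. No p-value is therefore given, and every interval covers counting error only.

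Fibril-forming collagens are made as procollagen chains in the endoplasmic reticulum, where prolines and lysines are hydroxylated and the chaperone HSP47 binds the folded helix. After secretion, proteases remove the propeptides, the molecules assemble into fibrils, and lysyl oxidases crosslink them. Fibril-associated, beaded-filament and network-forming collagens decorate or link the fibrils. In pancreatic ductal adenocarcinoma, fibroblasts are known as the main source of the dense collagen stroma.

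Fibroblast-like cells, named from 12 markers that include none of the 35 genes, numbered 2220 of 2520 retained tumour cells with 28676212 UMIs, and 1481 of 4520 retained normal cells with 14198442 UMIs. Their median depth was 10433.5 UMIs per cell in the tumour library and 9018 in the normal library. The stellate label was only partly met: of 8 stellate markers 6 were higher in the tumour sum, Lrat had 2.44 CPM (counts scaled to a sum of 1000000) in tumour fibroblast-like cells against 0 UMIs in normal ones (limit 0.211 CPM), and Gfap was under 0.1 CPM in both. UMIs of other cell types were also found in the fibroblast-like sums. All 11 acinar markers were lower in the tumour sum (97.4 CPM together, 34.5 to 342 CPM over its large subsets) than in the normal sum (712 CPM, 487 to 859 CPM), with none at 0, and of 10 endothelial markers 9 were lower (199 against 454 CPM). Of 11 macrophage markers 10 were lower (12.8 against 99.9 CPM, with Fcgr1 and Ly6c2 at 0 in the tumour sum). Of 7 B-cell or plasma-cell markers 4 were lower and 3 higher (1.71 against 213 CPM together). Ductal or tumour epithelial markers went the other way, with 9 of 10 higher in the tumour sum (92.7 against 35.1 CPM). Sox9 was the top gene of that list in every subset. The part of all these UMIs in the results was not tested. The barcode lists shared 4 barcodes, of which 2 passed the filters.

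Clustering that left the 35 genes and their pathway genes out of the variable genes split the tumour fibroblast-like cells into 4 large subsets, named here by their leading gene: Thbs4-led (739 cells), Apod-led (616), Hp-led (445) and Inhba-led (385). The Inhba-led cells carried the myofibroblastic CAF markers, had a median of 26280 UMIs per cell and held 35.7% of all tumour fibroblast-like UMIs. The Hp-led cells carried the markers of universal, Pi16-type fibroblasts (10 of 10 at least 2-fold above the other tumour cells, 8500 CPM together) and also the highest sum of inflammatory CAF markers of any subset (5 of 11 at least 2-fold up, 13888 CPM). Normal cells formed an Abca8a-led subset (1078 cells) and a Sema3c-led subset (363 cells). The Sema3c-led cells carried universal fibroblast markers (15826 CPM). Their sum of inflammatory CAF markers was 1746 CPM, with 5 of 10 measured ones at least 2-fold above the other normal cells. Another 27 tumour cells fell in the Abca8a-led cluster, and 36 normal cells in the Hp-led cluster. Those 36 cells had 8621 CPM of 7 adipocyte markers, 7480.5 CPM of it from Cfd, where the large normal subsets had at most 1.24 CPM. They also had 5588 CPM of inflammatory CAF markers, with 7 of 10 measured ones at least 2-fold above the other normal cells. Without these 36 cells no gene of the 35 changed its call. Orders among subsets are given for the 6 large ones, and values of the 2 small groups where they depart from them. Since the same cells were used for clustering and for levels, subset values are descriptions.

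Collagen chain UMIs made up a larger share of the tumour fibroblast-like sum. The 17 chains together gave 3.61% of tumour and 1.98% of normal fibroblast-like UMIs, a log2 fold of 0.86 of tumour over normal. Per cell the difference was smaller: the median cell had 2.24% in the tumour library (10th to 90th percentile 0.979 to 5.51%) and 1.81% in the normal library (1.11 to 3.04%), so the tumour cells spread further in both directions. Fibril-forming chains carried most of it, at 30929 CPM in tumour and 14615 CPM in normal cells.

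The share was highest in the myofibroblastic cells. The Inhba-led tumour cells had a median share of 4.50% (5.09% of summed UMIs), the Thbs4-led 2.30%, the Hp-led 2.21% and the Apod-led 1.52%, against 1.93% in the normal Abca8a-led and 1.57% in the normal Sema3c-led cells. The median Apod-led tumour cell thus gave a smaller share of its UMIs to collagen chains than the median normal cell of either large subset. Over summed UMIs the order was different, with 2.04% in Apod-led, 1.74% in Sema3c-led and 2.19% in Abca8a-led normal cells. Median depth was 7639.5 UMIs in Apod-led, 13301 in Sema3c-led and 8068 in Abca8a-led normal cells. Without the Inhba-led cells the log2 fold of the chain sum was 0.49, and with every cell weighted the same it was 0.51. Depth moved with this share: within all 8 groups of cells the deeper cells had the higher median, for example 5.36% in deeper and 3.43% in shallower Inhba-led cells, and 2.07% and 1.79% in normal Abca8a-led cells. The part of depth in the result was not tested.

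**Figure D1:**
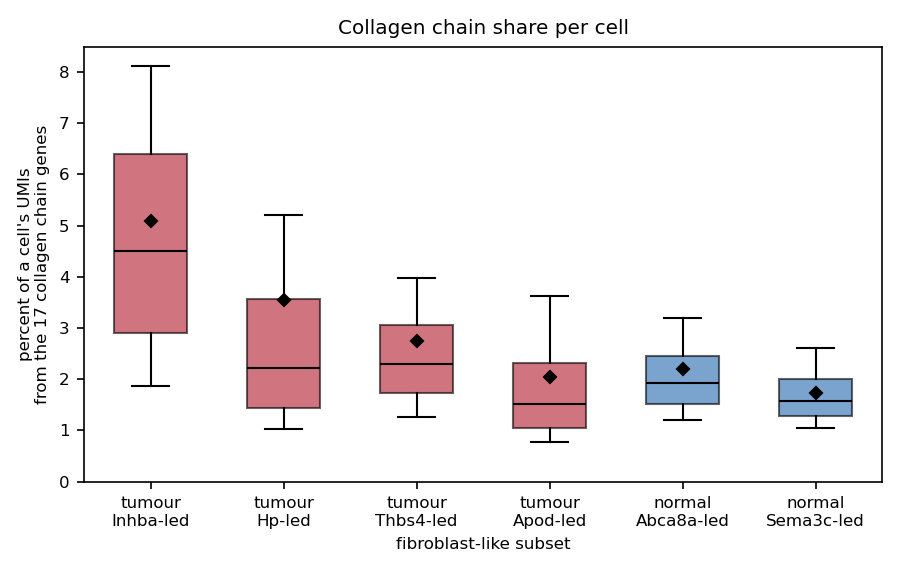
Share of each cell's UMIs that came from the 17 collagen chain genes, in percent, for the 4 large tumour subsets (red) and the 2 large normal subsets (blue). Boxes show the quartiles and the median, whiskers the 10th and 90th percentiles, and diamonds the share of summed UMIs. The Inhba-led median of 4.50% lies above the 90th percentile of both normal subsets.

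A gene was called when its fold of tumour over normal CPM was at least 2 either way with a 95% interval that excluded 1, given 50 CPM or more in the tumour or the normal sum. Of the 35 genes, 28 reached 50 CPM, 13 of the 17 chains and 15 of the 18 processing genes. Of these 28, 7 were called higher in tumour cells, where 9.38% of the 3637 genes measured were called higher, and 3 were called lower, where 10.8% of all were. The remaining 18 were neither. The median log2 fold was 0.68 over 15 chains and 0.39 over 16 processing genes with at least 20 CPM, beside -0.25 over 6816 genes at that level. Scaling by TMM or by the median ratio, which moves the median of all genes to 0.11 or 0.13, calls 11 or 13 of the set higher and 2 lower, with 546 or 565 genes higher and 198 or 194 lower overall in place of 341 and 394. Without the Inhba-led cells the median was 0.39 for chains and 0.019 for processing genes.

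**Figure D2:**
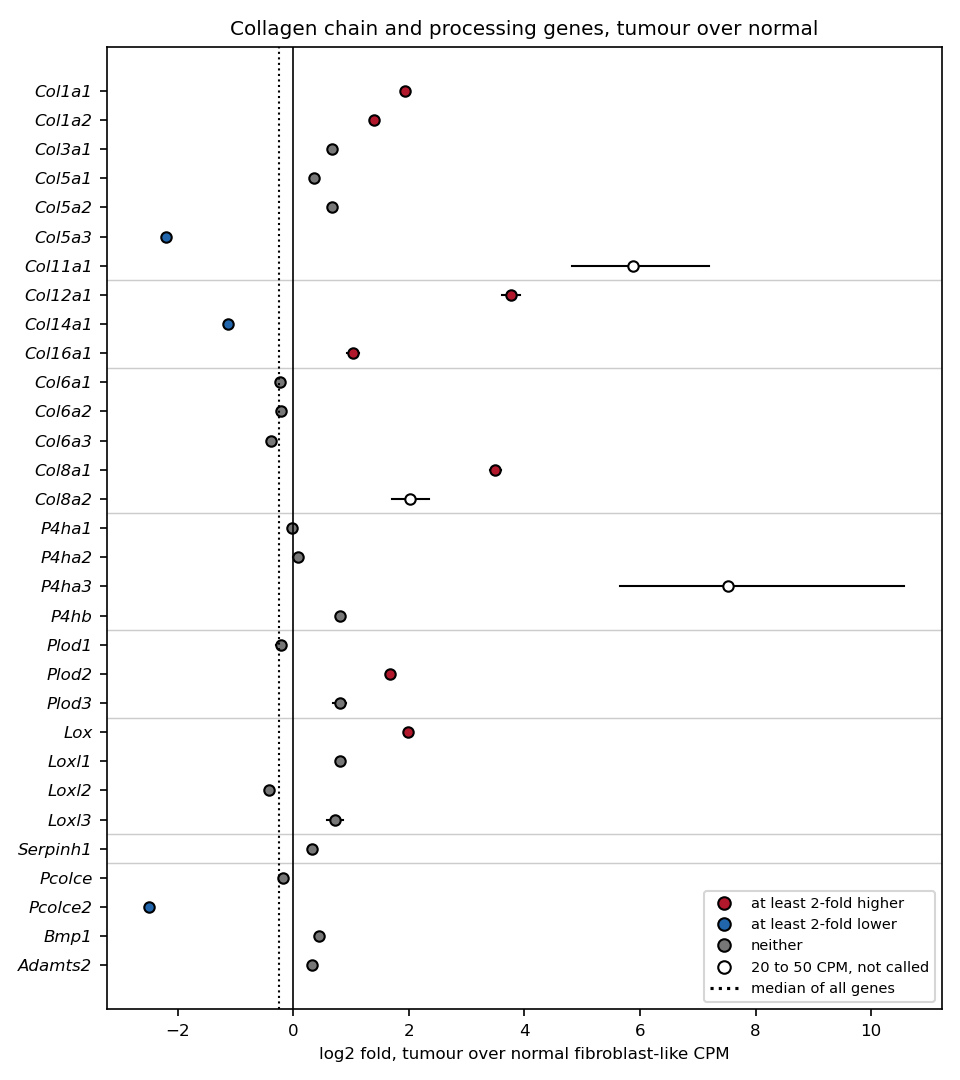
Log2 fold of tumour over normal fibroblast-like CPM for the 31 genes that reached 20 CPM in the tumour or the normal sum, grouped by role from the fibril-forming chains at the top to propeptide cleavage at the bottom. Bars are 95% counting intervals, and the dotted line is the median of all genes at -0.25. Called genes run from Pcolce2 at -2.49 to Col12a1 at 3.77.

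Promoter windows show the sequence upstream of some of the genes that moved furthest and of a chain that did not reach 2-fold. RefSeq windows (GRCm38.p6) were matched for 25 of the 35 genes, and the 250 bases before the start are printed for Col8a1, Col11a1 and P4ha3, which were over 10-fold higher in tumour cells, for Col5a3, which was lower in tumour cells, and for Col3a1. Capitals mark letters searched on both strands: the Sp1 box GGGCGG, the CCAAT box, the SMAD element CAGACA, the TEAD element GGAATG and the TATA box TATAAA.
Col8a1 (chr16:57754738-57754987, minus strand): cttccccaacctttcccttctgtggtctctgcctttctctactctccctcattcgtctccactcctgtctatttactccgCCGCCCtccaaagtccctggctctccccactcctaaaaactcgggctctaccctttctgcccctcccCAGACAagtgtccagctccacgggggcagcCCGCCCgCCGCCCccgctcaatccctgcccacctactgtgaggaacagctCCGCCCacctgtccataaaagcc
Col11a1 (chr3:114030290-114030539, plus strand): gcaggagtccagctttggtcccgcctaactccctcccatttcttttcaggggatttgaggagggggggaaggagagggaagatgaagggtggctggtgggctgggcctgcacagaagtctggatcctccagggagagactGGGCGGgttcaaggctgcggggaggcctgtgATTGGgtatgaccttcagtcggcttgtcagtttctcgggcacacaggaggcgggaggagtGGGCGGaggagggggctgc
P4ha3 (chr7:100285270-100285519, plus strand): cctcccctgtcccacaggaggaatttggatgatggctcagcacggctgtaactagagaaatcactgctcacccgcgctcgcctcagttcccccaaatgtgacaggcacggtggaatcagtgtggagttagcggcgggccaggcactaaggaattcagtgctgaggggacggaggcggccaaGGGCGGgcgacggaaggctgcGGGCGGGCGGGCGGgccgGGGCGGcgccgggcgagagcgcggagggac
Col5a3 (chr9:20815068-20815317, minus strand): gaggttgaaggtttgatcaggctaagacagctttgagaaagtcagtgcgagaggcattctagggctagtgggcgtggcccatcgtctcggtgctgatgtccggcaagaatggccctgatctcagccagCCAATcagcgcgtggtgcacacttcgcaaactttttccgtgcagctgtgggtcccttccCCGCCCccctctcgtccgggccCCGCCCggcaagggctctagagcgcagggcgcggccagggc
Col3a1 (chr1:45311288-45311537, plus strand): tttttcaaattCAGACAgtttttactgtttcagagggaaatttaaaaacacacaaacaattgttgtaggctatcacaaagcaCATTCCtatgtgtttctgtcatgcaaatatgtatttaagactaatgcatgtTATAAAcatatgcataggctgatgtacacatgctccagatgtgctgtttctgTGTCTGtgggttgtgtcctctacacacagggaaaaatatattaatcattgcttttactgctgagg
P4ha3, Col8a1, Col11a1 and Col5a3 held 5, 4, 2 and 2 Sp1 boxes, so that windows of genes with folds in opposite directions shared this feature. Col3a1 held none, with a TATA match, a TEAD element and 2 SMAD elements instead, and its window was 35.2% G and C where the other 4 had 60.8 to 67.2%. Windows of Pcolce2 (5.63-fold lower) and Col24a1 (at least 13.2-fold higher) were matched but are not printed. They held 1 and 0 Sp1 boxes. An Sp1 box was present in 20 of the 26 windows of the set (Col6a2 has 2) and in 32.7% of all 32851 promoter windows of that length. SMAD elements were in 5 of the 26 windows (17.1% of all windows) and CCAAT boxes in 6 (33.8%). A further 2 motifs searched were the AP-1 element TGANTCA, in 1 window of the set (6.75% of all), and the hypoxia response core ACGTG, in 7 (16.6%), among them P4ha1, P4ha2 and P4hb. A match describes letters only.

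Among fibril-forming chains, both chains of collagen I were higher in tumour cells. Col1a1 (chromosome 11) had 13675 CPM in Inhba-led, 6817 in Hp-led, 5334 in Thbs4-led and 3297 in Apod-led tumour cells, against 2309 CPM in Abca8a-led and 2027 in Sema3c-led normal cells. Its fold over the sums was 3.81 (3.76 to 3.86). Col1a2 (chromosome 6) had 14961, 10554, 8025 and 6082 CPM in the tumour subsets in that order, against 4202 and 3916 CPM in the normal subsets, with a fold of 2.65 (2.63 to 2.67). For both genes all 4 large tumour subsets lay above both large normal subsets. The 27 tumour cells of the Abca8a-led cluster did not, with 1182 CPM of Col1a1 and 2953 CPM of Col1a2, and the 36 normal cells of the Hp-led cluster were lower still, at 840.1 and 1408 CPM. That order over the large subsets held for 8 of the 28 measured genes and for 14.2% of the 3637 measured genes overall.

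Collagen III, which forms mixed fibrils with collagen I, did not keep that order. Col3a1 had 13049 CPM in Inhba-led and 12553 in Hp-led tumour cells, but 6943 in Thbs4-led and 5049 in Apod-led tumour cells, against 6693 and 5578 CPM in the Abca8a-led and Sema3c-led normal cells. The tumour and normal subsets thus overlapped, and the fold over the sums was 1.60 (1.59 to 1.61).

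Collagen V chains, which start and limit the width of collagen I fibrils, split. Col5a1 (fold 1.29) and Col5a2 (fold 1.59) did not reach 2-fold. Each was highest in the Inhba-led cells, at 1178 and 1788 CPM, 1.99-fold and 1.96-fold above the other tumour cells together. Col5a3, the chain found in some collagen V molecules only, was 4.59-fold lower in tumour cells (4.44 to 4.73). It had 303 CPM in Inhba-led, 210.4 in Apod-led, 123 in Hp-led and 97.3 in Thbs4-led tumour cells, against 1233 CPM in Abca8a-led and 376 in Sema3c-led normal cells. All 4 large tumour subsets were below both large normal subsets, an order held by 27.8% of all measured genes but by no other of the 28. The 27 tumour cells of the Abca8a-led cluster had 288 CPM, 4.28-fold below the normal cells of their own cluster. The 36 normal cells of the Hp-led cluster had 143 CPM, inside the tumour range and close to the 123 CPM of the Hp-led tumour cells. At least 1 Col5a3 UMI was found in 46.8% of tumour and 89.3% of normal fibroblast-like cells once each cell was thinned to 5000 UMIs, and in 62.5% and 94.2% before thinning. B-like cells had a UMI in 1.33% of 75 tumour and 2.74% of 73 normal cells.

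The minor fibril-forming chains were rare, with nearly all of their fibroblast-like UMIs in the tumour library. Col11a1, which like collagen V helps to start fibrils, had 829 UMIs in tumour and 7 in normal fibroblast-like cells, or 28.9 against 0.493 CPM, a fold of 58.6 (28.3 to 146). By subset it had 46.8 CPM in Thbs4-led, 34.8 in Inhba-led and 19.98 in Apod-led tumour cells but 0.189 CPM, a single UMI, in the Hp-led cells, against 0.791 CPM in normal Abca8a-led cells and 0 in Sema3c-led cells. The Hp-led cells therefore stood with the normal subsets for this gene. Col11a1 was detected in 9.10% of tumour and 0.473% of normal fibroblast-like cells. In B-like cells, which should lack it, it was found in 0 of 75 tumour cells (median 2824 UMIs, allowing a share of up to 4%). Col24a1 had 80 UMIs in 61 tumour cells and 0 in normal cells, at least 13.2-fold higher when the normal sum is set to the floor of 3 counts.

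The fibril-associated collagens XII and XIV went opposite ways. Col12a1 had 765 CPM in Inhba-led, 144 in Thbs4-led, 105 in Hp-led and 48.9 in Apod-led tumour cells, against 5.31 CPM in Abca8a-led and 56.6 in Sema3c-led normal cells. Its fold was 13.6 (12.2 to 15.2), and 7.05 between Inhba-led cells and the other tumour fibroblast-like cells. The Apod-led cells were below the normal Sema3c-led cells, so the subsets overlapped, and without the Inhba-led cells the log2 fold was 2.10 in place of 3.77.

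Col14a1 had 1240.1 CPM in Hp-led, 377 in Apod-led, 232 in Thbs4-led and 153 in Inhba-led tumour cells, against 1737 CPM in Sema3c-led and 496 in Abca8a-led normal cells. In each library it was highest in the subset with universal fibroblast markers. Its sum was 2.18-fold lower in tumour cells (2.12 to 2.23). That call ended in 7 of 18 alternatives, for example at a log2 fold of -0.80 with TMM scaling and -0.69 without the Inhba-led cells, where it was -1.12. Col16a1, another fibril-associated chain, had 112 to 198 CPM over the large tumour subsets and 65.7 and 80.5 CPM in the normal subsets, with a fold of 2.05 (1.91 to 2.19). This fold stood at the threshold, and its log2 value of 1.03 was 0.91 with every cell weighted the same.

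Collagen VI, which forms beaded filaments around cells, was near its normal level. Col6a1, Col6a2 and Col6a3 had folds of 0.855, 0.860 and 0.770, and the first pair was above 1 with TMM or median ratio scaling (log2 0.09 and 0.10 with TMM). The ratio of Col6a1 to Col6a2 UMIs was 1.17 in tumour and 1.18 in normal cells, with overlapping intervals. Within the normal library all 3 were lower in Sema3c-led than in Abca8a-led cells, with 962 against 2163 CPM for Col6a1.

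The network-forming collagen VIII had some of the largest differences. Col8a1 had 1246 CPM in Inhba-led and 1006 in Thbs4-led tumour cells, but 105 in Hp-led and 86.6 in Apod-led tumour cells, against 159 CPM in Sema3c-led and 20.9 in Abca8a-led normal cells. The fold over the sums was 11.3 (10.6 to 12.0). Hp-led and Apod-led tumour cells thus lay between the normal subsets, and Thbs4-led cells were 11.6-fold above Apod-led cells. Col8a2 followed at lower levels, with 51.2 CPM in Thbs4-led and 27.2 in Inhba-led tumour cells and at most 7.23 CPM in the other large subsets. Col10a1, a chain of hypertrophic cartilage, had 7 UMIs, all in a single tumour cell, and 0 in normal cells. Its gene overlaps Nt5dc1 on the opposite strand.

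**Figure D3:**
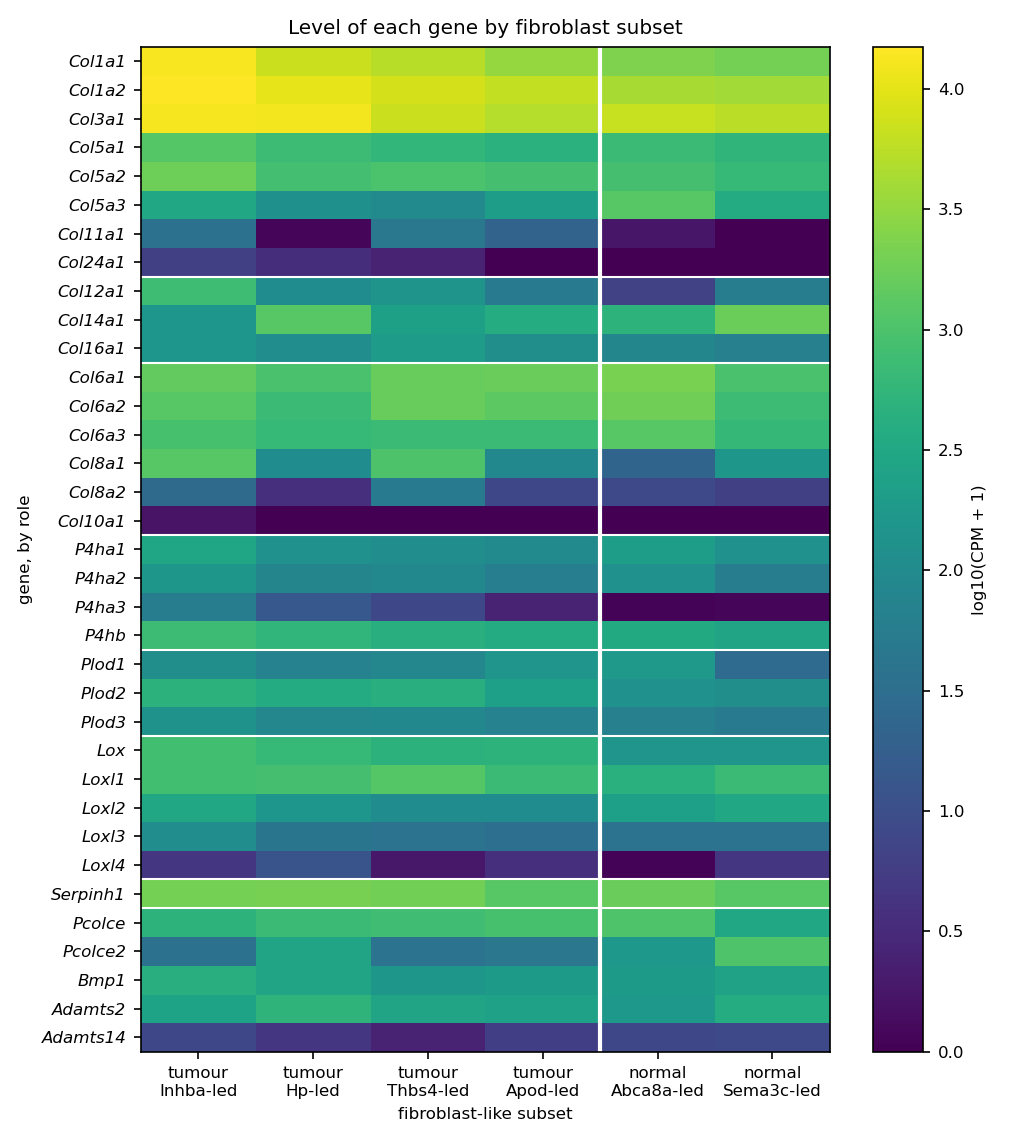
Level of each of the 35 genes as log10(CPM + 1) in the 4 large tumour subsets, left of the white line, and the 2 large normal subsets. Rows are grouped by role and divided by white lines. The Inhba-led column is the highest for Col1a1, Col1a2, Col12a1 and P4ha3, and Col14a1 and Pcolce2 are highest in Hp-led tumour and Sema3c-led normal cells.

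Ratios between paired chains compare UMIs of both genes summed over the same group of cells, so that the UMI total of the group cancels. They do not show that both genes were read in the same single cells. Over a whole library they also depend on the mix and depth of its subsets. As a 3′ method counts a tag per transcript end, ratios are of UMIs and are compared across cells only. Col1a1 to Col1a2 stood at 0.775 in tumour and 0.539 in normal fibroblast-like cells. The ratio was 0.914 in Inhba-led, 0.665 in Thbs4-led, 0.646 in Hp-led and 0.542 in Apod-led tumour cells, against 0.550 and 0.518 in the Abca8a-led and Sema3c-led normal cells, so the Apod-led cells were at the normal value. Col1a1 to Col3a1 was 0.836 in tumour and 0.351 in normal cells, and from 0.543 (Hp-led) to 1.05 (Inhba-led) over the tumour subsets, all above the 0.345 and 0.363 of the large normal subsets. In the 27 tumour cells of the Abca8a-led cluster it was 0.269, below both.

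Col5a3 to Col5a2 was 0.161 in tumour and 1.18 in normal cells. All 4 large tumour subsets, at 0.0993 to 0.240, lay below the Sema3c-led cells at 0.604 and the Abca8a-led cells at 1.41. Col12a1 to Col14a1 was 0.819 in tumour and 0.0276 in normal cells. It spanned 0.0851 in Hp-led to 5.01 in Inhba-led tumour cells, against 0.0107 and 0.0326 in the Abca8a-led and Sema3c-led normal cells. In the tumour library the Inhba-led cells gave 7841 of 9840 Col12a1 UMIs, and the Hp-led cells gave 6548 of 12014 Col14a1 UMIs. The summed tumour ratio of this pair thus also reflects the mix of subsets.

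**Figure D4:**
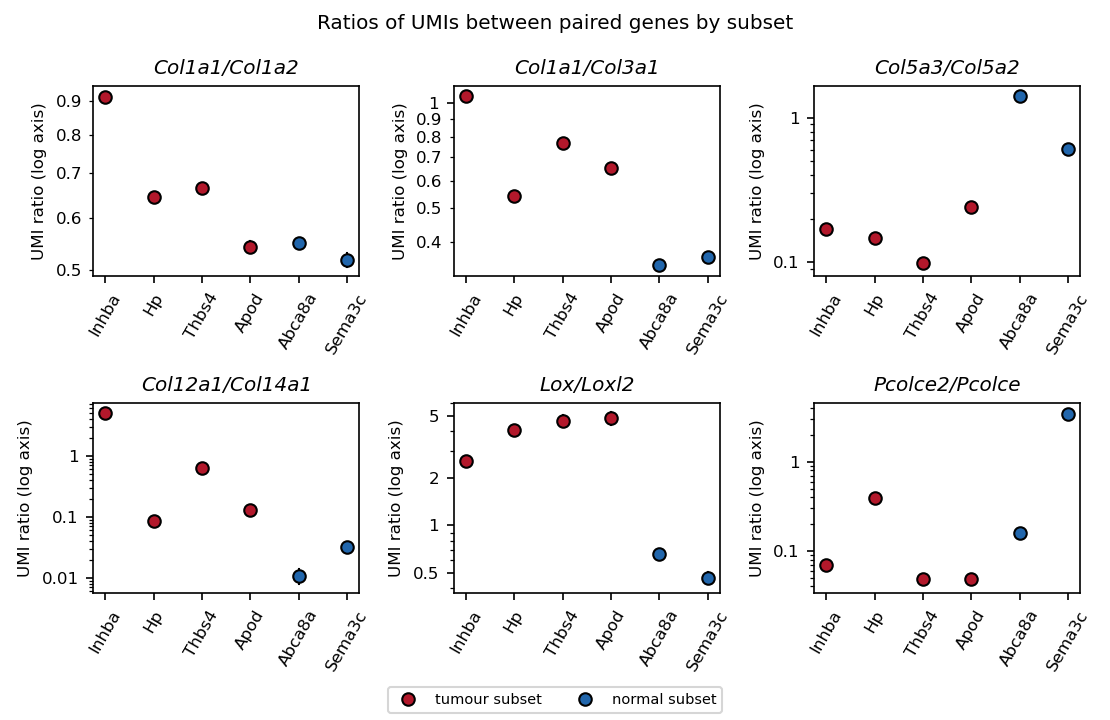
Ratios of UMIs between 6 pairs of genes in the 4 large tumour subsets (red) and the 2 large normal subsets (blue), on log axes. Vertical bars are 95% counting intervals, mostly smaller than the points. Col1a1/Col3a1, Col12a1/Col14a1 and Lox/Loxl2 are higher, and Col5a3/Col5a2 is lower, in all 4 tumour subsets than in both normal subsets.

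Prolyl 4-hydroxylase, which stabilises the collagen helix, showed no 2-fold change in its common subunits. The catalytic subunits P4ha1 (178 against 180.4 CPM, fold 0.985) and P4ha2 (107 against 101 CPM, fold 1.06) had intervals that included 1. Both were higher in Inhba-led cells than in other tumour cells, 2.58-fold and 2.04-fold. The shared subunit P4hb, protein disulfide isomerase, had 376 to 718 CPM over the tumour subsets and 274 and 340.1 CPM in the normal subsets, with a fold of 1.74 (1.69 to 1.80).

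P4ha3, the least abundant of the catalytic subunits by UMIs, had 741 UMIs in tumour and 2 in normal fibroblast-like cells, a ratio of 183 (50.6 to 1518). Inhba-led tumour cells had 58.6 CPM, Hp-led 13.1, Thbs4-led 7.02 and Apod-led 1.63, against 0.206 CPM in Sema3c-led and 0.113 in Abca8a-led normal cells, with a single UMI in each of the normal subsets. The Inhba-led cells supplied 600 of the 741 UMIs. After thinning, P4ha3 was found in 22.9% of Inhba-led cells and 0.647 to 3.38% of the other large tumour subsets. B-like cells had 0 UMIs in both libraries.

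Lysyl hydroxylases prepare the lysines that are later crosslinked. Plod2, which acts on the telopeptides at the chain ends, had 484 CPM in Inhba-led, 429 in Thbs4-led, 364 in Hp-led and 225 in Apod-led tumour cells, against 128 and 117 CPM in Abca8a-led and Sema3c-led normal cells. All tumour subsets, small ones included, lay above the normal ones, and the fold was 3.18 (3.03 to 3.35). Plod3 had a fold of 1.75 and overlaps Znhit1 on the opposite strand. Whether counting used strand is not given in the sources used here, so its value is uncertain. Plod1 had a fold of 0.863, above 1 with TMM scaling (log2 0.11). Plod2 to Plod1 was 3.87 in tumour and 1.05 in normal cells, but 4.25 in the normal Sema3c-led cells, where Plod1 had 27.5 CPM against 177 CPM in Abca8a-led cells, and 1.53 in Apod-led tumour cells. This ratio thus divided subsets within each library as much as the libraries.

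Lysyl oxidases form the crosslinks. Lox had 806 CPM in Inhba-led, 631 in Hp-led, 506 in Apod-led and 488 in Thbs4-led tumour cells, against 147 and 148 CPM in Abca8a-led and Sema3c-led normal cells. All large tumour subsets lay above both large normal subsets, with a fold over the sums of 3.98 (3.81 to 4.16) and, without the Inhba-led cells, a log2 fold of 1.75. The small groups departed from this, with 212 CPM in the 27 tumour cells of the Abca8a-led cluster and 440.3 CPM in the 36 normal cells of the Hp-led cluster. After thinning, 78.7% of tumour and 42.4% of normal cells had a UMI, and of B-like cells, unthinned, 1.33% of 75 in the tumour library and 0 of 73 in the normal library did. The family members differed from it. Loxl1 had a fold of 1.75, with 695 to 1195 CPM in tumour and 445 and 694 CPM in normal subsets. Loxl2 was at 312 CPM in Inhba-led tumour cells but at 105 to 156 CPM in the other large tumour subsets, against 223 and 321 CPM in normal cells. Its fold was 0.752, and without the Inhba-led cells it was called lower at a log2 fold of -1.06.

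Loxl3, with a fold of 1.65, is uncertain in the same way, overlapping Htra2, and Loxl4 had 115 UMIs in tumour and 22 in normal cells. Lox to Loxl2 was 3.33 in tumour and 0.629 in normal cells, and 2.58 to 4.81 over the large tumour subsets against 0.461 and 0.661 in the large normal subsets. The 36 normal cells of the Hp-led cluster, at 3.98 (2.92 to 5.50), lay inside the tumour range, and the 27 tumour cells of the Abca8a-led cluster, at 1.24, below it.

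Serpinh1, which encodes the chaperone HSP47, had 1873 CPM in tumour and 1494 CPM in normal cells, a fold of 1.25 (1.23 to 1.27). It ranged from 1232 to 2063 CPM in tumour subsets and stood at 1688 and 1215 CPM in the normal subsets. The collagen I chains were thus further apart between the libraries than the chaperone that binds their folded helix.

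Propeptide removal held the strongest decrease of the set. Pcolce2, an enhancer of the C-propeptide protease, was 5.63-fold lower in tumour cells (5.37 to 5.90). It had 273 CPM in Hp-led, 44.4 in Apod-led, 38.0 in Thbs4-led and 35.7 in Inhba-led tumour cells, against 1044 CPM in Sema3c-led and 168 in Abca8a-led normal cells. As for Col14a1, a subset with universal markers was the highest in each library. Pcolce2 was 3.82-fold lower in Hp-led tumour than in Sema3c-led normal cells, and Col14a1 1.40-fold, but against the 36 normal cells of their own cluster the Hp-led tumour cells were 3.67-fold higher for Pcolce2 (273 against 74.4 CPM) and 4.14-fold higher for Col14a1. The related enhancer Pcolce did not differ by 2-fold (fold 0.882, above 1 with TMM scaling at log2 0.14). It overlaps Fbxo24 on the same strand, which had 87 UMIs in fibroblast-like cells where Pcolce had 19930 in tumour and 11192 in normal ones. It had the reverse pattern in the normal library, with 303 CPM in Sema3c-led and 1073 CPM in Abca8a-led cells. Pcolce2 to Pcolce was 0.119 in tumour and 0.589 in normal cells, and 3.44 in the Sema3c-led cells.

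Bmp1, the C-propeptide protease itself, had a fold of 1.36 and reached 422 CPM in Inhba-led cells, 2.09-fold above other tumour cells. Adamts2, the main N-propeptide protease, had a fold of 1.25, with 511 CPM in Hp-led tumour cells and 390.3 CPM in Sema3c-led normal cells as the highest subsets of each library. Adamts14 was under 8 CPM in every large subset. Against the output of chains, processing genes gave 180 UMIs per 1000 chain UMIs in tumour and 256 in normal cells. The largest shifts were in P4ha3 (0.716 against 0.00711 per 1000 chain UMIs, resting on 2 normal UMIs) and Pcolce2 (2.28 against 23.4, 10.3-fold lower). Lox (17.5 against 7.99 per 1000 chain UMIs) and Plod2 (11.1 against 6.35) were above the normal ratio, and Plod1 (2.87 against 6.06), Pcolce (19.3 against 39.8), Loxl2 (5.25 against 12.7) and P4ha1 (4.92 against 9.11) below it.

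The Inhba-led and Hp-led cells were set against other groups of cells. The share of all genes 2-fold apart in these comparisons of subsets is not given here, so the genes listed describe the set only. Over the other tumour fibroblast-like cells, Inhba-led cells were at least 2-fold higher, among genes with at least 20 CPM, for P4ha3, Col12a1, Loxl3, Col1a1, P4ha1, Loxl2, Col8a1, Col5a3, Bmp1 and P4ha2, and at least 2-fold lower for Col14a1 (3.71-fold) and Pcolce2 (3.03-fold). Hp-led cells were higher for Pcolce2 (6.96-fold) and Col14a1 (5.31-fold) and lower for Col8a2 (11.7-fold), Col8a1 (8.63-fold), Col12a1 (3.76-fold) and P4ha3 (2.20-fold), with 1 UMI of Col11a1 against 828 in the others. Set against the normal Sema3c-led cells, which share the universal markers but are another cluster, the Hp-led tumour cells had 4.27-fold more Lox, 3.36-fold more Col1a1, 3.12-fold more Plod2, 2.70-fold more Col1a2 and 2.25-fold more Col3a1, with Plod1, Pcolce and P4hb also past 2-fold, but 3.06-fold less Col5a3 and 2.05-fold less Loxl2. Col12a1 (1.86-fold higher) and Col8a1 (1.51-fold lower) were not 2-fold apart there. The 36 normal cells of the Hp-led cluster carried adipocyte and inflammatory CAF markers and gave 0.684% of their UMIs to collagen chains. Set against them, the Hp-led tumour cells had 8.11-fold more Col1a1, 7.50-fold more Col1a2 and 2.14-fold more Plod2, but only 1.43-fold more Lox. Col5a3 was at 0.863 times their level, with an interval that included 1. Col3a1 (5.38-fold), Plod1 (3.63-fold, on 9 normal UMIs) and P4hb (2.40-fold) were also past 2 there. Among genes with at least 20 CPM, the folds of collagen I, Col3a1, Plod1, Plod2 and P4hb were thus past 2 in both settings. Those of Lox, Pcolce and Col5a3 were past 2 against the Sema3c-led cells only. Pcolce2, Col14a1, Loxl2 and Col8a1 turned, lower than in Sema3c-led cells but higher than in the 36 normal cells. Loxl2 was 1.41-fold higher there, and Col8a1 rested on 3 normal UMIs. In the Abca8a-led cluster the 27 tumour cells had 1.95-fold less Col1a1 and 1.42-fold less Col1a2 than the normal cells, so collagen I was not higher in every tumour group.

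Outside fibroblast-like cells, collagen chain sums were lower and differed widely between classes. The highest, 7467 CPM, was in 20 normal cells that were given no name. B-like or plasma-like cells, which should lack collagen, had 134 CPM in tumour (75 cells) and 63.2 CPM in normal (73 cells, median 9511 UMIs), against 36077 and 19819 CPM in fibroblast-like cells. Macrophage-like or monocyte-like cells were at 167 and 91.7 CPM, near that level. Pericyte-like or smooth muscle-like normal cells (147 cells) had 2214 CPM, with 711 CPM of Col3a1 but 90.1 of Col1a1, and 16 mesothelial-like normal cells had 6832 CPM. Acinar-like cells had 66.1 CPM in the tumour library and 953 CPM in the normal library (15 cells each). The 77 ductal-like or tumour epithelial-like cells of the tumour library had 2127 CPM. Among them Col11a1 stood at 68.1 CPM in 14 cells, above the 28.9 CPM of the tumour fibroblast-like sum, while Col1a1 at 487 CPM was far below the 8226 CPM there.

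Processing genes were less restricted. Endothelial-like normal cells, with 121 CPM of chains, had 438 CPM of Serpinh1 and 95.8 CPM of Plod1. Macrophage-like or monocyte-like cells had 203 CPM of P4ha1 and 504 CPM of P4hb in the tumour library (52 cells) and 80.3 and 181 CPM in the normal library (1394 cells). Loxl2 reached 130 CPM in lymphatic endothelial-like tumour cells (72 cells) and 140 CPM in the 15 normal ones.

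**Figure D5:**
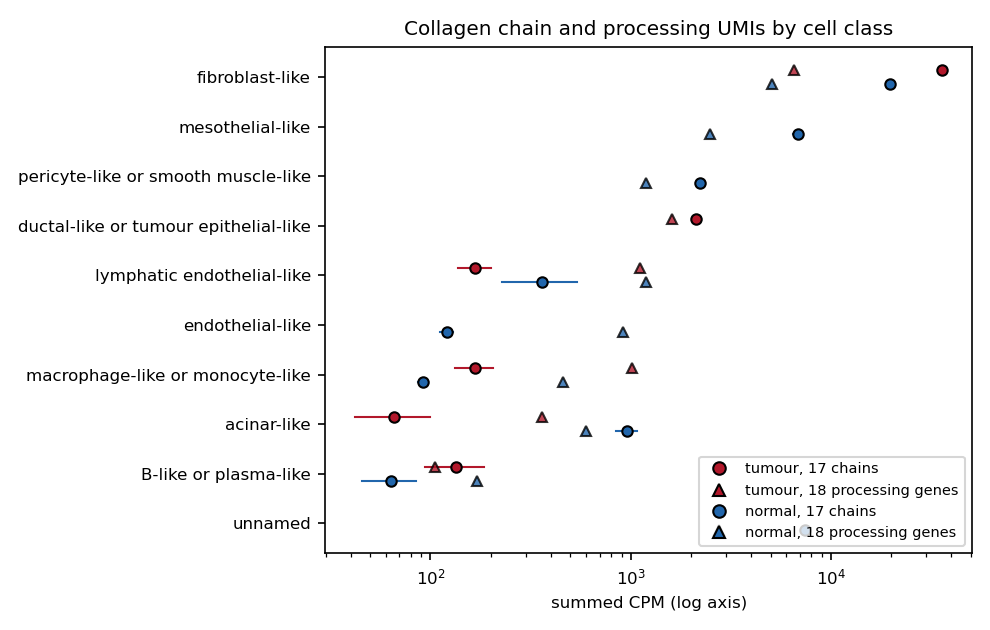
Summed CPM of the 17 chain genes (circles, with 95% counting intervals) and the 18 processing genes (triangles) in each cell class with at least 10 cells in a library, on a log axis, tumour in red above normal in blue. Chains exceed processing genes in fibroblast-like, mesothelial-like, pericyte-like, ductal-like or tumour epithelial-like, unnamed normal and normal acinar-like cells and fall below them in endothelial-like and macrophage-like cells.

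The normal library mixed cells of both sexes, and the tumour library did not. Among normal fibroblast-like cells 485 had Xist UMIs only and 766 Y-linked UMIs only, while 2113 tumour cells had Xist only and 0 had Y-linked UMIs only. Of 26 genes of the set measured at 50 CPM, Col8a1 alone was 2-fold apart between the normal sexes, with 29.6 CPM in Xist-only and 92.2 CPM in Y-only cells. Col12a1, under that level, was also over 2-fold apart, at 14.3 and 33.4 CPM. The share of all genes 2-fold apart between the sexes is not given here. The Sema3c-led subset held 18.8% of Xist-only and 31.7% of Y-only cells, and within it Col8a1 was at 66.3 and 190 CPM. Col12a1 there was at 23.8 and 68.3 CPM. Within the Abca8a-led subset Col8a1 was at 17.6 and 22.2 CPM. The part of cell makeup in the difference was not tested. Against the Xist-only normal cells, the tumour log2 fold of Col8a1 was 4.69 in place of 3.50. How many mice of each sex gave these cells is not known, so that sex and mouse cannot be told apart.

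Genes around the set moved in different directions. Of 7 other collagen chains measured at 50 CPM, 0 were called higher and 4 lower, with Col4a4 7.83-fold and Col6a6 3.49-fold lower, Col27a1 at a fold of 1.04 and Col15a1 at 0.791. Of 13 other folding and modifying factors of the endoplasmic reticulum only Fkbp10 was called, at a fold of 2.16, followed by Crtap (1.73), with Fkbp14 (0.785) and Pdia3 (0.933) the lowest. None of 9 procollagen export genes was called (Ctage5 0.554 and Mia3 0.792 to Sec24d 1.17 and Sec13 1.26). Neither measured gene of the propeptide protease list was called: the protease Furin (1.73), and Fn1 (1.20), which encodes fibronectin and not a protease. These counts stand beside 9.38% called higher and 10.8% called lower of all measured genes.

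Of 8 genes of collagen breakdown and uptake measured at 50 CPM, Timp1, an inhibitor of matrix metalloproteinases, was 36.5-fold higher (1583 against 43.4 CPM). Fap, a fibroblast protease, was 2.45-fold lower, with Ctsk at a fold of 1.74 and Timp2 at 0.525. Under 50 CPM, the metalloproteinase genes Mmp13, Mmp9 and Mmp8 had 660, 225 and 79 UMIs in tumour and 0, 5 and 1 in normal cells. Pepd, also under that level, was at a fold of 0.768. Of 3 collagen receptors measured, Ddr2 (2.75-fold) and Itga11 (2.80-fold) were lower and Itgb1 was at 0.836. Small proteoglycans that bind fibrils split: Bgn was 4.07-fold and Fmod 2.30-fold higher, while 5 of 8 were lower, led by Ogn (4.61-fold) and Dcn (2.497-fold, 5948 against 14852 CPM).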

How the data were processed

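What the authors deposited, 1 matrix for each of 2 libraries, holds unnormalized UMI counts by gene and barcode. Per the submitters' processing notes the authors used Cell Ranger 3.1.0 with the mm10 genome build. Deposited barcode lists and gene names were used as they stand. Cells had at least 500 genes and 1000 UMIs and at most 10% mitochondrial UMIs (2573 of 2942 tumour and 4616 of 5437 normal barcodes, from 33285044 and 36675424 UMIs). Scrublet removed 96 normal cells. Its automatic threshold marked 0.117% of tumour cells and was taken not to have worked, so 53 cells were removed by rank of score, as the expected rate sets. Both libraries were clustered together in scanpy 1.11.5 (2000 variable genes without the 35 genes and their pathway lists, 30 components, 15 neighbours, Leiden resolution 0.5) and clusters named from fixed markers. Raw counts were summed per class or subset and scaled to CPM. Intervals are exact 95% Poisson or conditional binomial intervals (scipy 1.17.1). They cover counting error only. A gene at 0 counts was set to a floor of 3 counts, 0.105 CPM in the tumour and 0.211 CPM in the normal fibroblast-like sum. List medians used genes with at least 20 CPM. For shares of cells with a UMI, cells were thinned to 5000 UMIs, which left 1856 tumour and 1337 normal fibroblast-like cells. Subset names came from marker folds within a library. The 35 genes and the lists were chosen with earlier results of these data known. All 35 genes are accounted for, and of each pathway list the 2 highest and 2 lowest measured genes are named; 6 pathway symbols had no match. Alternatives numbered 16, with 2 more chosen after seeing the data. TMM factors came from edgeR 4.0.16. The calls were tested on simulated counts. Gene overlaps were read from GENCODE vM21 on GRCm38, the assembly behind mm10.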

Additional observations from a re-analysis of the deposited data

How the results depend on the processing

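No paired analysis was possible because each group has 1 sample. No called gene changed direction under any of 18 alternatives. With TMM 11 genes and with median ratio scaling 13 were called higher, with medians of 1.00 and 1.01 (log2) for chains, 0.71 and 0.72 for processing genes and 1.18 and 1.20 for the chain sum, which were 0.68, 0.39 and 0.86 in the report. Weighting every cell the same gave 0.36, 0.18 and 0.51, and thinning 0.42, 0.22 and 0.58. Leaving out the Inhba-led cells gave 0.39, 0.019 and 0.49, with 7 genes called higher and 3 lower, Loxl2 in place of Col14a1. Of all 3609 genes measured there, 314 were called higher and 302 lower. With no filter on low levels 12 genes were called higher, beside 1445 of all 27998 genes. Over all retained cells, which differ in cell makeup, 17 were, beside 438 of all 3891 genes measured, with 1.77, 1.22 and 1.96. Chain medians and sums were 0.66 and 0.85 with lenient filters and 0.72 and 0.91 with doublets kept. The chain median was 0.69 with strict filters and 0.70 in cells with a Pdpn UMI. Against normal cells of female mice the medians were 0.70 and 0.48. For the alternatives chosen after seeing the data, the chain median and sum were 0.65 and 0.83 without the normal Hp-led cells, and 0.62 and 0.77, with 0.28 for processing genes, with the large subsets weighted the same. The cause of these shifts was not tested. Genes with calls in all 18 alternatives were Col1a1, Col1a2, Col8a1, Col12a1, Plod2, Lox, Col5a3 and Pcolce2, whereas Col14a1 kept its call in 11 and Col16a1 in 15. Genes under 50 CPM, such as Col11a1 and P4ha3, rest on few normal UMIs, which limits the precision of their folds.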
